A study of Mus musculus with 4 samples.

Results

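Mitochondrial protein import and folding was described through 10 genes, taken from the 24940 genes of the deposited islet table by their symbols: Tomm20, Tomm22, Tomm40, Timm50, Timm23, Timm17a, Timm44, Hspa9, Hspd1 and Lonp1. Each symbol had 1 row, and all 10 genes passed the filter on low values. The libraries were made from pancreatic islets of male mice aged 3 to 4 months on a low-fat chow diet, about 300 islets a library from a pool of 2 to 3 mice. Tafazzin-knockdown mice gave 2 libraries (replicates 3 and 4) and non-transgenic control mice gave 2 (replicates 1 and 2). The labels used here name neither the knockdown construct nor an inducer, and because the controls carry no transgene, the transgene and the loss of Tafazzin cannot be told apart. Values are given as units, where 1 unit is 1 read among 10000000 reads of that library. They are not scaled by gene length, and a single read was worth 0.123 to 0.145 units.

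Most mitochondrial proteins are made in the cytosol and carried across the mitochondrial membranes by translocases. TOM, in the outer membrane, receives and admits precursors, and TIM23, in the inner membrane, passes those with an N-terminal presequence on to the matrix, where an Hsp70 motor pulls them in. Chaperones then fold the imported chains, and proteases remove those that fail. Tafazzin remodels cardiolipin, the inner-membrane phospholipid with which several of these complexes associate. In beta cells, mitochondria couple glucose oxidation to insulin secretion.

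Nuclear respiratory factor 1 (NRF1) and ETS-family factors are known regulators of nuclear genes for mitochondrial proteins, so the 250 bases before the transcription start of each gene (RefSeq, GRCm38.p6) were searched on both strands for GCGCANGC (NRF1) and CCGGAAG (ETS). Of the 10 genes, 9 were searched, in 10 windows. A gene was counted if any of its windows matched, whereas the shares beside the counts are of windows. The NRF1 letters lay upstream of 2 of the 9 genes, against 8.29% of all 32851 windows of this length. The ETS letters lay upstream of 3, against 6.91%. TGATGNAA, a composite element of ATF4 and C/EBP, was in none of the 9 (3.45% of all windows), and neither was AAGATGGC, from the YY1 motif (1.56%). The matched stretches are shown on the strand of the gene as 30-base windows with the matched letters in capitals. They lie at chr8:126945922-126945951 for Tomm20, chr1:55088284-55088313 and chr1:55088058-55088087 for Hspd1, chr15:79670811-79670840 for Tomm22 and chr14:32201921-32201950 for Timm23. The Tomm22 window is on the plus strand and the others are on the minus strand.
Tomm20, NRF1: gggtccatctgcGCGTGCGCaccaggcgtt
Hspd1, NRF1: ggccgcgcagcGCGCAGGCgcactcagccc
Hspd1, ETS: cgcgcggggcCTTCCGGAAGgttctagaac
Tomm22, ETS: gcccggctcgCTTCCGGAAGacgctctgtc
Timm23, ETS: tcgcgcttcccaCTTCCGGgccgcacacag
In Tomm22 and in the ETS window of Hspd1 the capitals hold 2 overlapping matches, 1 on each strand. The Hspd1 windows belong to different annotated starts of that gene, and its ETS window lies inside the span given for Hspd1 below. A match describes the letters, not a bound site.

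The libraries totalled about 76680283 and 78630833 reads in knockdown replicates 3 and 4, and 68823161 and 81073503 reads in control replicates 1 and 2. Rn45s, the ribosomal RNA precursor, held 42.4% and 42.5% of the knockdown reads and 41.6% and 42.6% of the control reads. Genes other than the 15 rows above 25000 units held 5.58% and 5.51% of the knockdown reads and 5.80% and 4.63% of the control reads. Taz, the gene of Tafazzin, stood at 13.8 and 12.7 units in the knockdown and 23.1 and 15.4 units in the controls, lower in both knockdown pools. Its log2 fold change was -0.65 relative to the median of all genes. Taz did not pass the test (adjusted p = 0.529 by limma, 0.136 by limma after median-ratio scaling, 0.122 by edgeR and 0.599 by DESeq2). Along the leading principal component (52.6% of variance) knockdown replicates 3 and 4 had scores of 33.6 and 11.8, and control replicates 1 and 2 had -16.9 and -28.5. All 12 beta cell markers were read in every library, and 0 of them were called by limma on the deposited values, but 12 of 12 lay below the median of all genes (median log2 fold change -0.26 relative to it). After median-ratio scaling, 9 of the 12 had both knockdown pools below both controls, against 20.0% of all genes. Of the 12, 1, Mafa, named after its values were seen, was called lower (adjusted p = 0.0198 by limma after scaling, 0.0439 by edgeR and 0.0318 by DESeq2). The shares of all genes called lower by these tests were 0.155%, 0.148% and 0.0829%. Limma called 2.49% of all genes higher in the knockdown. It called higher 9 of 12 stellate cell and fibroblast markers, 4 of 8 endothelial, 4 of 7 tested duct and 2 of 6 tested macrophage and myeloid markers. After median-ratio scaling limma called 8, 3, 2 and 1 of these markers higher (1.12% of all genes), and DESeq2 called 7, 3, 0 and 1 (0.626% of all genes higher). Of 6 alpha and delta cell markers 0 were called. The summed levels in the knockdown and the controls ranged from 327 to 435 and from 135 to 138 units for stellate markers, from 228 to 303 and from 133 to 147 for endothelial markers, from 846 to 1331 and from 650 to 661 for duct markers, and from 45.8 to 59.5 and from 38.2 to 43.0 for macrophage and myeloid markers. Acinar markers summed to 2181 to 4718 units in the knockdown and 2664 to 5434 in the controls, with 0 of 7 tested called and Amy2a5 at 0 in all libraries. After median-ratio scaling the macrophage and myeloid sums overlapped, at 55.3 and 43.3 units in the knockdown and 41.4 and 45.1 in the controls. The scaled duct sums were 1238 and 801 units in the knockdown and 626 and 780 in the controls. Of the 6 tested macrophage and myeloid markers, 4 lay below the median of all genes. The part of these cell types in the results below was not tested.

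None of the 10 import and chaperone genes passed the test between knockdown and control islets. Their estimates ran from a log2 fold change of -0.27 for Timm17a to 0.45 for Timm44 and 0.48 for Tomm22. By limma on log2(value + 1), with Benjamini-Hochberg adjustment over 13531 genes at 0.05, 0 were higher and 0 lower, where 2.49% of all genes were called higher and 0.0443% lower. The unadjusted p was under 0.05 for 2 of the 10, Tomm22 and Timm44, against 9.88% of all genes in the higher direction. After median-ratio scaling limma again called 0 (1.12% of all genes higher, 0.155% lower), as did edgeR's quasi-likelihood test on recovered reads (1.29% and 0.148%) and DESeq2 (0.626% and 0.0829%), and edgeR gave 0 of the 10 an unadjusted p under 0.05, against 10.3% of all genes. The median of all genes lay at a log2 fold change of 0.17, so log2 fold changes below are relative to that median, while limma p-values test the unshifted change. The median of the 10 was then -0.02, with 4 above and 6 below the median of all genes and 5 of the 10 between the quartiles of all genes, -0.16 and 0.18. The 95% intervals of the 10 folds together spanned 0.564 to 1.97, so a fold of 2 lay outside each of them, although the spread in this fit is that of a trend across genes and not of each gene. The plot of changes shows Tomm22 and Timm44 to the right of the other 8 genes.

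**Figure D1:**
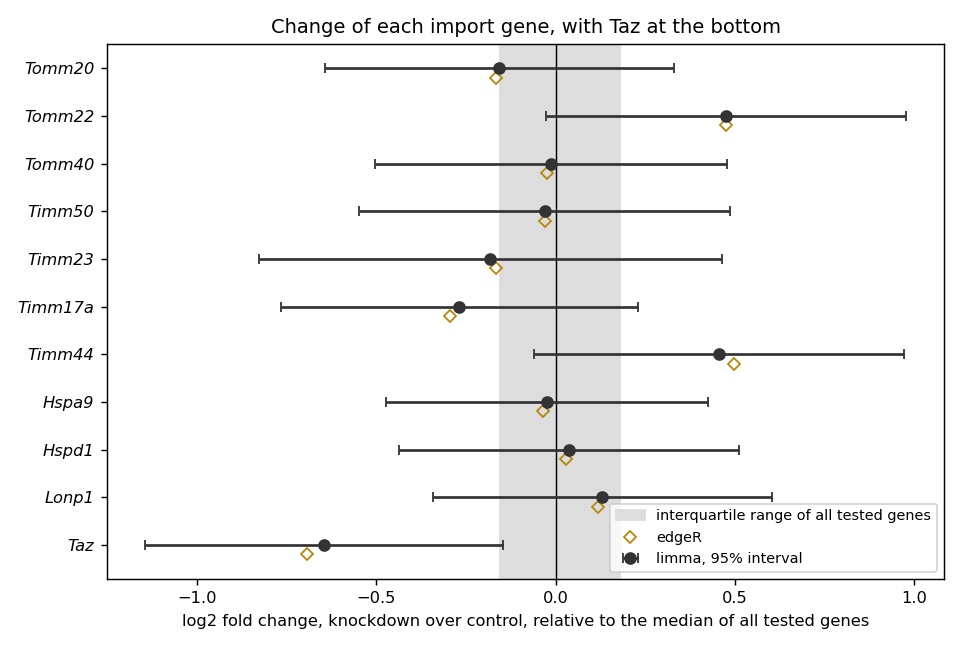
Log2 fold change of each gene, knockdown over control, relative to the median of all 13531 tested genes (x axis), with limma estimates and 95% intervals as filled points and bars and edgeR estimates as open diamonds. The grey band is the interquartile range of all tested genes (-0.16 to 0.18), and the intervals of all 10 import genes include 0 while that of Taz lies below it.

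The TOM receptors gave different values. Tomm20 (NM_024214; mm10 chr8:126930664-126945921, minus strand), the receptor that recognises presequences, had 33.6 and 28.7 units in the knockdown (replicates 3 and 4), and 34.9 and 27.4 units in the controls (replicates 1 and 2). The control values enclosed the knockdown values. The log2 fold change was -0.16 ± 0.25 (SE; limma adjusted p = 0.997). Tomm22 (NM_172609; mm10 chr15:79670868-79672862, plus strand), the central receptor that holds the TOM complex together, stood at 16.4 and 21.1 units in the knockdown, against 9.88 and 13.6 units in the controls, from 126, 166, 68 and 110 reads. Both knockdown pools lay above both controls, with means of 18.8 ± 3.31 and 11.7 ± 2.61 units (SD, n = 2 each). The log2 fold change of 0.48 ± 0.26 SE did not pass the test (limma adjusted p = 0.224, edgeR adjusted p = 0.543), and its 95% interval ran from a fold of 0.982 to 1.97. Without control replicate 2 the log2 fold change was 0.82, whereas it was 0.13 without control replicate 1 and 0.29 without knockdown replicate 4. After median-ratio scaling the groups overlapped, at 15.3 and 20.0 units in the knockdown and 9.52 and 16.0 in the controls.

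Tomm40 (NM_001109748; mm10 chr7:19701313-19715429, minus strand), the channel through which precursors cross the outer membrane, stood at 25.4 and 24.0 units in the knockdown and 26.2 and 18.7 units in the controls. The control pools differed by more than the groups did, and the log2 fold change was -0.01 ± 0.25 SE (limma adjusted p = 0.932).

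On the inner membrane, Timm50 (NM_025616; mm10 chr7:28305826-28312046, minus strand), the TIM23 subunit that takes precursors over from TOM, was read at 11.2 and 11.3 units in the knockdown and 11.3 and 9.13 units in the controls. Control replicate 2 was the low library and the other 3 were nearly equal (log2 fold change -0.03 ± 0.26 SE, limma adjusted p = 0.946). Timm23 (NM_016897; mm10 chr14:32180166-32201891, minus strand), the channel subunit that names the complex, stood at 5.22 and 3.05 units in the knockdown and 4.21 and 3.95 units in the controls, from only 40, 24, 29 and 32 reads. Its knockdown pools enclosed the controls, and its interval was the widest of the 10 on the log2 scale, with folds from 0.564 to 1.38 (log2 fold change -0.18 ± 0.33 SE, limma adjusted p = 0.996). Timm23 transcripts match 4 annotated pseudogenes and the gene Gm10273 at 95% identity or more over at least 300 bases, so its level is uncertain. Timm17a (NM_011590; mm10 chr1:135301535-135313737, minus strand), the partner of Timm23 in the channel, stood at 16.2 and 15.6 units in the knockdown and 21.1 and 13.9 units in the controls. Both knockdown values lay inside the control range. Its log2 fold change was -0.27 ± 0.25 SE (limma adjusted p = 0.964), -0.12 without control replicate 1 and -0.42 without control replicate 2.

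Timm44 (NM_011592; mm10 chr8:4259731-4275905, minus strand) tethers the import motor to the TIM23 channel. It stood at 14.6 and 13.2 units in the knockdown and 9.88 and 7.65 units in the controls, from 112, 104, 68 and 62 reads. The groups did not overlap, with means of 13.9 ± 0.976 and 8.76 ± 1.58 units (SD, n = 2 each), and they stayed apart after median-ratio scaling, at 13.6 and 12.5 units in the knockdown and 9.52 and 9.02 in the controls. The log2 fold change was 0.45 ± 0.26 SE, which did not pass the test (limma adjusted p = 0.289, edgeR adjusted p = 0.520). Leaving out any library gave a log2 fold change between 0.39 and 0.50, with 0.0545 as the lowest limma adjusted p.

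Hspa9 (NM_010481; mm10 chr18:34937415-34954351, minus strand) encodes mortalin, the matrix Hsp70 that drives the motor and folds imported chains. It stood at 203 and 215 units in the knockdown and 208 and 173 units in the controls. It had the most reads of the 10, from 1400 to 1690 a library, and control replicate 2 was the only library set apart. The log2 fold change was -0.03 ± 0.23 SE (limma adjusted p = 0.929).

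Hspd1 (NM_001356512; mm10 chr1:55077833-55088243, minus strand) encodes Hsp60, the chaperonin barrel of the matrix. It stood at 63.5 and 72.1 units in the knockdown and 62.6 and 55.0 units in the controls. The groups did not overlap, but knockdown replicate 3 and control replicate 1 differed by less than 1 unit, and after scaling they overlapped. The log2 fold change was 0.04 ± 0.24 SE (limma adjusted p = 0.891). Hspe1, the Hsp10 lid of the same chaperonin, starts head to head with Hspd1 and shares 95 bases with it in the table, so reads there cannot be assigned. Hspe1 stood at 18.0 and 16.0 units in the knockdown and 11.8 and 12.1 in the controls, apart in both scalings but without passing the test (0.31 ± 0.26 SE on the log2 scale, limma adjusted p = 0.539).

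Lonp1 (NM_028782; mm10 chr17:56614298-56626903, minus strand), the ATP-dependent protease that clears damaged matrix proteins, stood at 69.4 and 73.8 units in the knockdown and 69.5 and 48.6 units in the controls. Control replicate 1 matched the knockdown pools and control replicate 2 was lower. Lonp1 had a log2 fold change of 0.13 ± 0.24 SE (limma adjusted p = 0.803). Without control replicate 1 the median of all genes moved to 0.30 and the change of Lonp1 relative to it was 0.25. That change was 0.01 without control replicate 2 and 0.07 without knockdown replicate 4.

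On the deposited values 3 of the 10 genes had both knockdown pools above both controls, where 34.9% of all tested genes did, and 0 had both below, where 4.49% did. After median-ratio scaling 1 gene, Timm44, lay above (20.4% of all genes) and 3 lay below, Tomm20, Timm50 and Timm17a (20.0%). With 10 genes, these counts lie near the shares over all genes. Control replicate 2 was the lowest library for 8 of the 10 genes on the deposited scale and for 3 after scaling. Summed over the 10 genes, the scaled level was 427 and 452 units in the knockdown and 441 and 437 units in the controls. The knockdown pools thus lay on either side of the controls. Hspa9 alone made up 44.3% to 46.6% of the sum in each library. In the plot of values by library, the filled points of control replicate 2 lie below its open points. Scaling multiplies all values of a library by 1 factor, so this holds for every gene by construction.

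**Figure D2:**
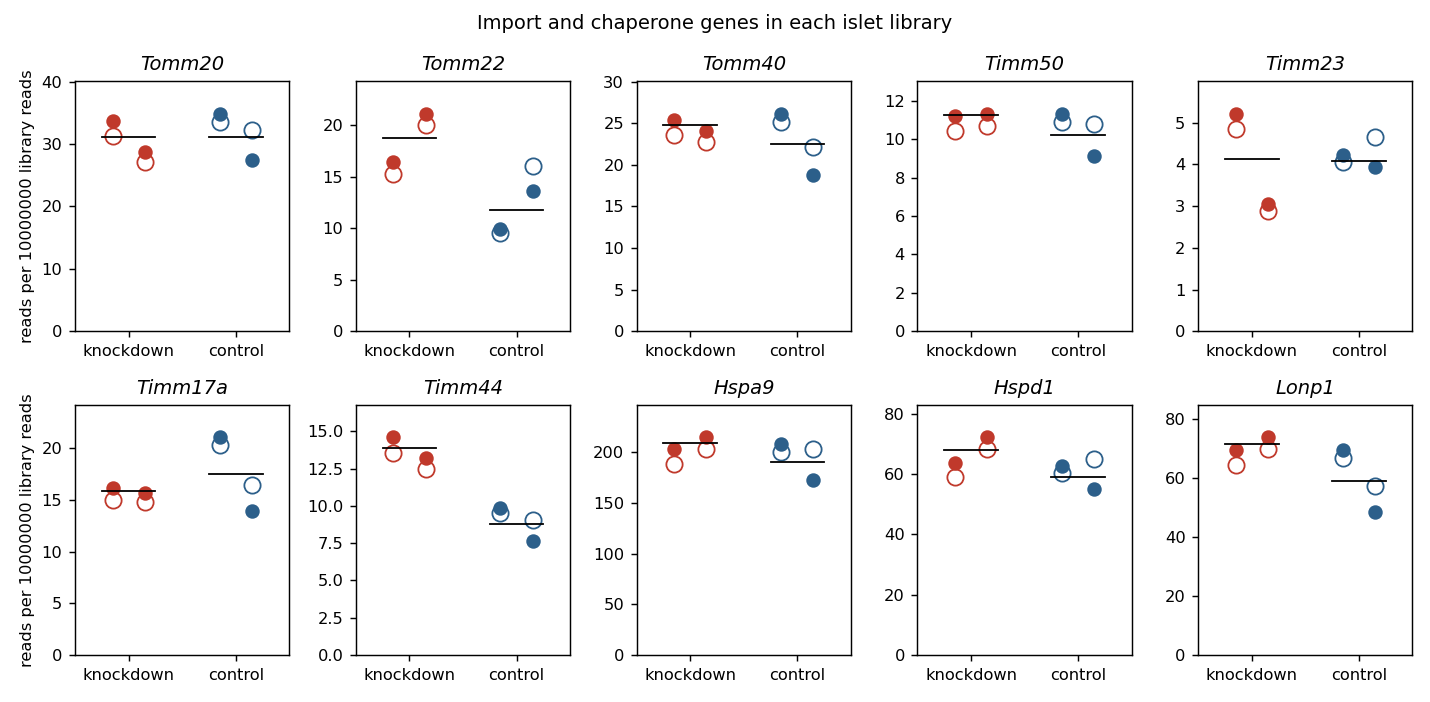
Level of each of the 10 genes in each library, in reads per 10000000 library reads (y axis, from 0), with knockdown replicates 3 and 4 in red and control replicates 1 and 2 in blue. Filled points are deposited values, open points are values after median-ratio scaling and lines are means of the deposited values. On the deposited values both knockdown pools stand above both controls for Tomm22, Timm44 and Hspd1, as in 34.9% of all tested genes. Their means are 18.8 against 11.7, 13.9 against 8.76 and 67.8 against 58.8 units. After scaling, Timm44 alone has both knockdown pools above both controls (20.4% of all genes).

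Per length, the chaperones and the protease were read at the highest levels. Per kb of exon, Hspa9 averaged 65.5 units over the 4 libraries, Hspd1 26.1 and Lonp1 22.1. Hspa9 exceeded all others without overlap, while the ranges of Hspd1 (22.7 to 29.8) and Lonp1 (16.5 to 25.0) overlapped, although Hspd1 was above Lonp1 in each of the 4 libraries. The outer-membrane channel Tomm40 followed at 14.3 and its receptor Tomm22 at 9.72, with ranges that overlapped. Timm50 (7.09) was above Tomm20 (6.36) in all 4 libraries with overlapping ranges, and Tomm20 was above Timm44 (6.34) in 2 of 4, so those 2 could not be put in order. The channel subunits Timm23 (3.50) and Timm17a (2.29) were lowest, in that order in all 4 libraries. The values include intronic reads, and per kb of gene span the order differed. Hspa9 stayed first at 11.8 units, Tomm22, a gene of 1994 bases, came second at 7.65, and Timm23, over 21725 bases, came last at 0.189. Timm17a, whose transcript has 7280 exonic bases, was above Timm44 per kb of span (1.37 against 0.701).

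**Figure D3:**
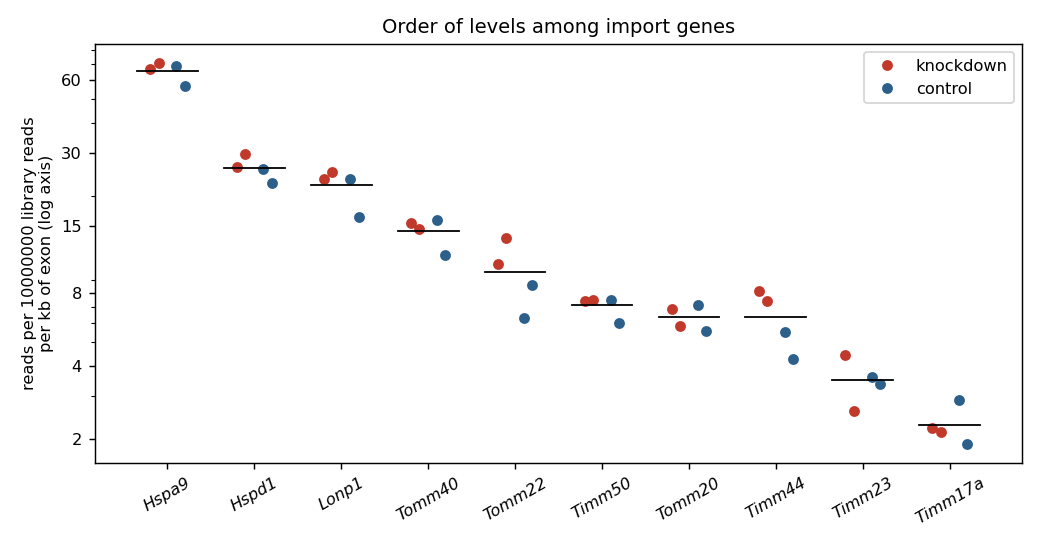
Level of each gene per kb of exon in each library (y axis, log scale), ordered by the mean over the 4 libraries (black lines), with knockdown in red and control in blue. Hspa9 lies above the rest at a mean of 65.5, and Timm23 and Timm17a lie lowest at 3.50 and 2.29.

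The rest of the import, folding and quality-control machinery showed the same absence of calls. Of 56 other genes listed, 52 were tested; Tomm70 had no row under that symbol, and Tomm20l, Timm8a1 and Timm8a2 were too low. Limma called 0 of the 52 higher and 0 lower, as did limma after scaling, edgeR and DESeq2. By limma 2 of the 52, Timm9 and Immp2l, had an unadjusted p under 0.05, both higher, against 9.88% of all genes in that direction. By edgeR 4 did, Immp2l higher (6.54% of all genes) and Timm29, Trap1 and Afg3l2 lower (3.75% of all genes), with unadjusted p from 0.0355 to 0.0379 and no adjusted p under 0.05. The median log2 fold change of the 52 was 0.03, with a range from -0.37 to 0.48 and 32 above the median of all genes. On the deposited values 23 of the 52 had both knockdown pools above both controls (34.9% of all genes) and 1 had both below (4.49%). After median-ratio scaling 11 lay above (20.4% of all genes) and 7 lay below (20.0%). Of the 52, 19 overlap another gene, and reads in the shared stretch belong to either gene.

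By role, the 10 tested genes of the outer membrane had a median of 0.10. Tomm70a, the receptor for carrier precursors, stood at 55.4 and 56.2 units in the knockdown and 48.7 and 43.0 in the controls (log2 fold change 0.12 ± 0.24 SE). The small TOM subunit Tomm6, which overlaps Tomm6os, stood at 36.5 and 36.2 units in the knockdown and 28.8 and 32.1 in the controls. In both genes the knockdown pools were above the controls on the deposited scale, as in 34.9% of all tested genes. After median-ratio scaling this held for Tomm70a (20.4% of all genes) and not for Tomm6.

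The 9 further genes of the TIM23 channel and motor had a median of 0.07. Among them Grpel1, the nucleotide exchange factor of Hspa9, stood at 29.0 and 28.7 units in the knockdown and 26.3 and 20.7 in the controls. Dnajc19, a J-protein of the motor, stood at 27.8 and 38.9 units in the knockdown and 43.3 and 23.6 in the controls. The groups overlapped for Dnajc19 and not for Grpel1, and both genes overlap a neighbour in the table (Fxr1 and Tada2b).

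Genes of the intermembrane space and the TIM22 route, which inserts carriers, had a median of -0.02 over 10 tested. Timm29, a TIM22 subunit that overlaps Yipf2, stood at 32.9 and 37.4 units in the knockdown and 44.5 and 33.7 in the controls (log2 fold change -0.30 ± 0.25 SE, limma adjusted p = 0.938). Timm10b stood at 15.5 and 16.8 units in the knockdown and 15.1 and 17.3 in the controls, where the controls enclosed the knockdown. Timm9, a small chaperone of this space named for its unadjusted p after its values were seen, stood at 6.26 and 6.10 units in the knockdown and 4.65 and 2.71 in the controls (log2 fold change 0.48 ± 0.31 SE, limma adjusted p = 0.426).

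Presequence processing genes had a median of 0.02 over 7. Pitrm1, which degrades cleaved presequences and overlaps Pfkp, stood at 48.5 and 49.1 units in the knockdown and 42.4 and 41.7 in the controls. Pmpca, a subunit of the processing peptidase, stood at 38.3 and 37.3 units in the knockdown and 36.5 and 31.7 in the controls. Both were higher in each knockdown pool, with log2 fold changes of 0.04 for Pitrm1 and -0.02 for Pmpca once set against all genes. Immp2l, an inner-membrane peptidase that overlaps Lrrn3, was also named after its values were seen. It stood at 20.6 and 16.3 units in the knockdown and 13.7 and 9.62 in the controls (log2 fold change 0.47 ± 0.26 SE, limma adjusted p = 0.241). Without control replicate 1 its log2 fold change was 0.56, in a fit where the median of all genes moved to 0.30.

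Folding and insertion genes had a median near 0 over 7, and proteases one of 0.02 over 9. Dnaja3, a matrix J-protein, stood at 37.3 and 44.3 units in the knockdown and 38.1 and 39.0 in the controls. Trap1, the mitochondrial Hsp90, stood at 23.3 and 22.6 units in the knockdown and 26.2 and 26.1 in the controls, below the controls in both scalings without passing the test (-0.34 ± 0.25 SE on the log2 scale, limma adjusted p = 0.910). Yme1l1, the inner-membrane protease that faces the intermembrane space, stood at 97.3 and 114 units in the knockdown and 98.5 and 88.8 in the controls. Afg3l2, a subunit of the protease that faces the matrix, stood at 39.9 and 47.4 units in the knockdown and 50.3 and 45.6 in the controls (log2 fold change -0.30 ± 0.24 SE, limma adjusted p = 0.938). After scaling the knockdown pools of Timm29 and Afg3l2 were below the controls. The plot by role shows every group centred near 0.

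**Figure D4:**
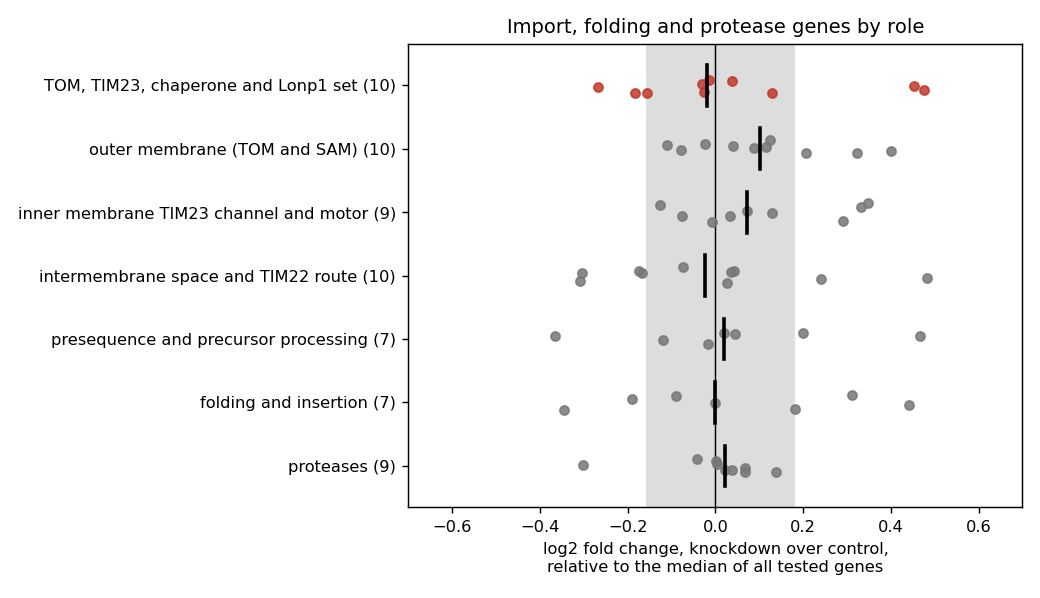
Log2 fold change of each tested gene, knockdown over control, relative to the median of all tested genes (x axis), for the 10 genes described above (red) and the 52 other genes of the pathway by role (grey), with the number of genes in brackets. Black bars are medians, which lie between -0.02 and 0.10, and the grey band is the interquartile range of all tested genes.

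Other nuclear genes for mitochondrial proteins gave similar summaries. Of 78 mitochondrial ribosomal protein genes limma called 0, with 7 at an unadjusted p under 0.05 and a median log2 fold change of 0.02. Of 45 tested complex I genes it called 0, with 2 at an unadjusted p under 0.05 and a median of -0.03. Over all 13531 tested genes, 1400 had an unadjusted limma p under 0.05. EdgeR called 0 in both of these gene groups as well. Beside these, the median of the 10 import and chaperone genes was -0.02. In bulk islets, fewer cells of a type and less RNA per cell cannot be told apart.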

How the data were processed

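A single table was deposited, with 1 row for each gene. Per the submitters' processing notes, mm10, edgeR, HOMER 4.9 and STAR 2.5.1b were used, in roles that are not given. What the authors deposited under the name FPKM is a signal per 10000000 library reads. In each library 100% of values up to 500 units were whole multiples of 1 read within 0.01 reads, so whole reads were recovered; limma was kept for the deposited values, and the count tests on these reads (edgeR 4.0.16 and DESeq2 1.42.0) call 194 and 94 genes. The length column equals the genomic span for 99.2% of genes, and in 338 of 338 nested genes, 118 on opposite strands, the host value was at least as high. The values were therefore read as unstranded counts over gene bodies, which no source used here states.

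Limma 3.58.1 (R 4.3.3) compared knockdown with control over 13531 genes (mean 1 unit or more, length 200 nt or more), two-sided, on log2(value + 1) and with the trend option. It estimated infinite prior degrees of freedom, so a gene's spread came from the trend. With 2 against 2 libraries an exact permutation test cannot go below p = 0.333, so none was used. Exonic lengths came from GENCODE M21 (for Hspd1 from NM_010477, since its listed transcript had no match). Near-identical copies came from BLAST 2.17.0. Limma and edgeR were also run on counts simulated from the control means with a fixed dispersion. Those counts had no shift in the median of all genes, so they do not test the fits under the shift seen here. The genes and lists were chosen with earlier results of these data known. Named genes are Taz, the 10 genes, the 2 most abundant genes of each role group, called genes and genes overlapping the 10; Timm9, Immp2l and Mafa were added after their values were seen. Each library is a pool of mice, so any spread is between pools and not between mice. In the main limma fit that spread was taken from the trend across genes, not from the pools of the gene tested.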

Additional observations from a re-analysis of the deposited data

How the results depend on the processing

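The 10 genes were refitted under 19 alternatives. The count of called genes among them was 0 in the main analysis and under each alternative that used all 4 libraries. With a library left out, a group held 1 library. Calls on the deposited values then moved for Lonp1 (without control replicate 1) and Tomm22 (without control replicate 2). Among the 52 other genes the count was likewise 0 with all 4 libraries, and the call moved for Immp2l without control replicate 1. With median-ratio scaling, leaving out a library gave 0 in both lists. The median log2 fold change of the 10 stayed between -0.032 and 0.0028 with a library left out, and 0 genes were called without Hspd1, which overlaps Hspe1. Of 189 values of single genes under alternatives, 13 changed sign, in Hspa9, Hspd1, Tomm40 and Timm23: Hspa9 was at 0.0045 with a pseudocount of 4, and with a library left out Hspa9 ranged from -0.082 to 0.023, Hspd1 from -0.071 to 0.13, Tomm40 from -0.11 to 0.080 and Timm23 from -0.48 to 0.11. With median-ratio scaling as well these ranges were -0.096 to 0.011, -0.083 to 0.12, -0.11 to 0.069 and -0.46 to 0.13. Without a sign change, Tomm22 ranged from 0.12 to 0.82, Timm44 from 0.39 to 0.50, Lonp1 from 0.0092 to 0.25, Timm50 from -0.054 to -0.015, Tomm20 from -0.27 to -0.064 and Timm17a from -0.42 to -0.12 over both scalings, and without control replicate 1 or knockdown replicate 3 Timm23 was below Timm17a. With scaling, the sign changes for Tomm40 were 0.069 without control replicate 1 and 0.0014 without knockdown replicate 4. Those for Hspd1 were -0.027 without control replicate 1 and -0.083 without knockdown replicate 4. Timm23 changed sign without knockdown replicate 4 (0.13) and Hspa9 without knockdown replicate 3 (0.011). Over all genes limma called 337 higher and 6 lower on the deposited values, 151 and 21 after median-ratio scaling, 0 and 0 with no filter on low values (1484 at an unadjusted p under 0.05), 1266 and 37 without control replicate 1, and 28 and 4 without knockdown replicate 3. After median-ratio scaling the same test called 0 genes without control replicate 1 (856 at an unadjusted p under 0.05). Timm23, with 24 to 40 reads a library, was the least precise of the 10. No paired analysis was possible because the groups share no replicate number.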

Other observations

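Of the recovered counts between 10 and 1000 reads, 72.3% and 72.3% were even in knockdown replicates 3 and 4, and 73.7% and 74.0% in control replicates 1 and 2. The reason was not tested. Tomm20 has 4 annotated pseudogenes that match its transcript at 95% identity or more over at least 300 bases, Timm17a has 1 and Hspd1 has 1, with a match of up to 1722 bases, and 0 of these have a row in the table.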
